A study of Zea mays with 74 samples.

Results

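The 7 maize genes described here were joined by chromatin contacts to a pair of intergenic CG differentially methylated regions (DMRs) between teosinte and modern maize. Zm00001d018036, Zm00001d018037 and Zm00001d018038 contacted a DMR on chromosome 5, and Zm00001d041948, Zm00001d041949, Zm00001d041950 and Zm00001d041951 contacted a DMR on chromosome 3. They were chosen by their identifiers from the study's list of genes in contact with intergenic DMRs that are less methylated in maize, which holds 60 genes and 42 DMRs. That lower methylation in maize is the condition for being on the list and was not measured again here. The contacted regions were 2 of the 1545 teosinte-maize CG DMRs deposited, and 2 of 6389 deposited DMRs of all contexts and population pairs.

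The series holds 20 plants of teosinte (Zea mays ssp. parviglumis, the wild relative from which maize was domesticated) and 17 plants of maize landraces, the farmer-kept varieties. DNA of the third leaf of greenhouse-grown seedlings gave whole-genome (WGS) and bisulfite (WGBS) libraries of each population, 20 and 17 of each kind. Modern maize was represented by 14 inbred lines from published data, which are not samples of the series. The files used here list regions called between populations, the DMRs and 4060 selective sweeps, with no value for any single plant, so no error between plants can be given.

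Plants methylate cytosine in 3 sequence settings, CG, CHG and CHH, H standing for A, C or T. CG methylation is copied at DNA replication, CHG methylation is kept in a loop with a histone mark of silent chromatin, and CHH methylation has to be set again after each replication, in part guided by small RNAs. In the large, transposon-rich maize genome most intergenic DNA is methylated, and short unmethylated stretches between genes often lie in accessible, regulatory chromatin. Such stretches can touch distant promoters through loops. The contacts used here come from sequencing of ligated fragments pulled down with an antibody to H3K4me3, a histone mark of active promoters, or H3K27ac, a mark of active promoters and enhancers. The maize contacts used by the study were published data of the inbred line B73. An anchor is the stretch of DNA at the gene's end of a contact, and distances below run from the nearer edge of the anchor to the nearer edge of the DMR.

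The 3 genes on chromosome 5 reached their DMR from 2 anchors, both pulled down with the H3K27ac antibody. Zm00001d018036, which carries the trait annotation cob length, shared its anchor at chr5:212571858-212588963 (B73 AGPv4) with Zm00001d018037. This anchor was 17.1 kb long and ended 54.4 kb before the DMR at chr5:212643381-212643674. Of the 44 anchors listed, 28 came with H3K27ac and 16 with H3K4me3. Zm00001d018038 had an anchor of its own at chr5:212627406-212637592, 10.2 kb long and 5.79 kb from the DMR. Distances were counted per pair of gene and DMR, so genes that share an anchor repeat the same distance. Over the 52 listed pairs on a single chromosome the median distance was 24.4 kb. Of these pairs, 3 were shorter than that of Zm00001d018038 and 32 were shorter than those of Zm00001d018036 and Zm00001d018037. The anchors thus differed in distance while sharing the antibody, the DMR and the side of the DMR, since both lay at lower positions.

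All 4 genes on chromosome 3 shared a single anchor, pulled down with the H3K4me3 antibody, at chr3:144970625-144987926. It was 17.3 kb long, the longest of the 44, against a median of 7.64 kb, and it was the only listed anchor with 4 genes. Zm00001d041948 carries the trait annotation shank length, the length of the stalk that bears the ear, and no trait is given for Zm00001d041949, Zm00001d041950 or Zm00001d041951. Over the list, 7 genes have a trait, of which Zm00001d041948 and Zm00001d018036 are 2. The paper names these 2 genes among its domestication candidates, and the DMRs described here are the ones they contact. Their number can therefore not be read against the list. The anchor ended 175 kb before the DMR at chr3:145163299-145163850, again on the side of lower positions. Among the 52 pairs, 47 were shorter and 1 was longer, the remaining ones being those of these 4 genes. Because the 4 genes lie in 1 anchor, they give 1 distance and 1 antibody rather than 4 independent ones, and the contact cannot be assigned to any single gene of them from these values.

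The chromosome 5 DMR was 293 bp long, and 897 of the 1545 teosinte-maize CG DMRs were longer. The chromosome 3 DMR was 551 bp long, and 366 were longer. The median over all of them was 333 bp, with a range from 41 to 2878 bp, so the lengths lay on either side of it. Among the 42 listed DMRs the median was 517.5 bp. Of these, 29 were longer than the chromosome 5 DMR and 16 were longer than the chromosome 3 DMR.

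Around the chromosome 5 DMR the nearest deposited region was another DMR on top of it. A teosinte-landrace CG DMR at chr5:212643526-212643721, 195 bp long, shared 148 bp with it, which is 50.5% of the contacted DMR and 75.9% of the teosinte-landrace DMR. By the called ends, the part of the contacted DMR nearer to the anchors was called between teosinte and maize only. A teosinte-landrace difference below the authors' cut-offs would not be listed there. Of all teosinte-maize CG DMRs, 265 (17.2%) overlapped a teosinte-landrace CG DMR, and of the 42 on the contact list 11 (26.2%) did. No landrace-maize DMR of any context lay within 500 kb, which is the usual case, since 16.6% of the 1545 had a CG, 13.3% a CHG and 1.29% a CHH DMR of that comparison so near. A teosinte-maize CHG DMR overlapped 769 (49.8%) of the teosinte-maize CG DMRs and 27 of the 42 listed ones, and neither contacted DMR had one. Where no DMR is listed, no difference passed the authors' cut-offs, and a smaller one may be present.

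Within 500 kb of the chromosome 5 DMR there were 2 further DMRs, both teosinte-maize and both at higher positions, away from the anchors. The nearer was a CHH DMR of 95 bp at chr5:212711822-212711917, 68.1 kb away. The farther was a CHG DMR of 128 bp at chr5:212800412-212800540, 157 kb away. The paper states its cut-off on the methylation difference for CG and CHG only, and counts DMRs of those contexts only. The cut-off behind the deposited CHH DMRs is therefore not known here. No other teosinte-maize CG DMR lay within 500 kb, as was so for 566 (36.6%) of the 1545. The nearest was 1960 kb away, against a median of 304 kb, and 106 of the 1545 had theirs farther off.

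Selective sweeps are stretches where allele frequencies differ between a pair of populations more than along most of the genome, scored by XP-CLR (cross-population composite likelihood ratio), a higher score meaning stronger differentiation. The chromosome 5 DMR lay in no sweep of any comparison. It had 2 sweeps within 500 kb, both teosinte-maize. The nearer, at chr5:212705001-212770000, was 65 kb long and started 61.3 kb from the DMR on the side away from the anchors. Its XP-CLR score was 62.9, rank 1195 of 1330 teosinte-maize sweeps counted from the highest score, and it held the CHH DMR named above. The other, at chr5:212135001-212195000, was 60 kb long and 448 kb away on the side of the anchors, with a score of 65.3 and rank 1076. Teosinte-maize sweeps had a median score of 77.2 and a range from 60.8 to 387, so both lay in the lower part of the range. Of the 1117 teosinte-maize CG DMRs outside teosinte-maize sweeps, 158 had one nearer than 61.3 kb, and the median gap was 427 kb. The nearest landrace-maize sweep was 841 kb from the DMR and the nearest teosinte-landrace sweep 1730 kb.

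The anchors on chromosome 5 and the stretches between them and the DMR held no deposited DMR and no sweep. For Zm00001d018036 and Zm00001d018037 that stretch was 54418 bp long, and for Zm00001d018038 it was 5789 bp.

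**Figure D1:**
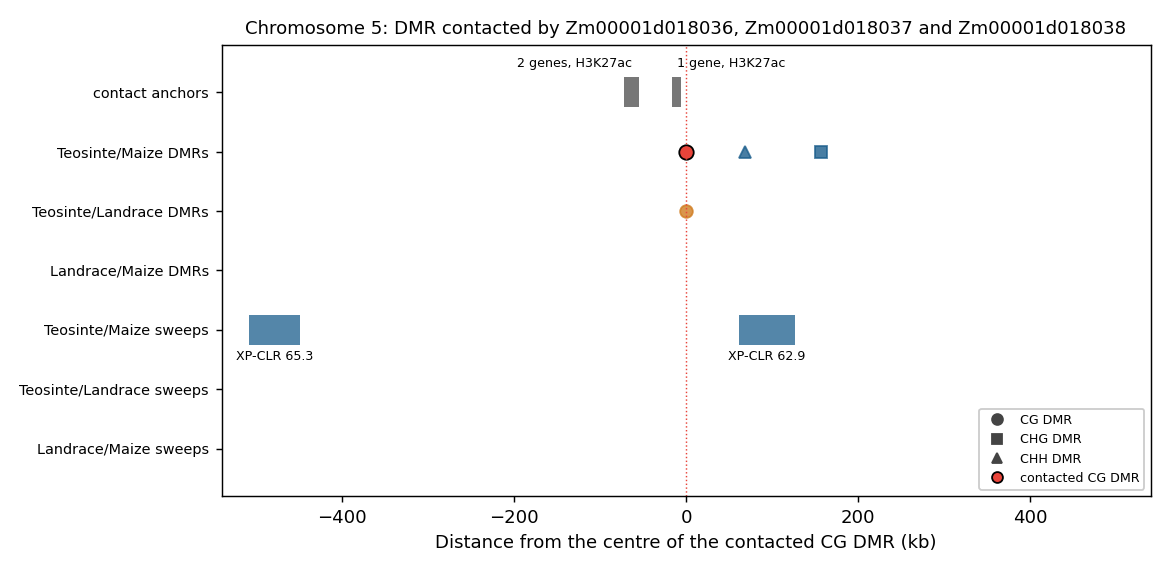
Regions within 500 kb of the chromosome 5 DMR, by distance from its centre in kb. Bars are contact anchors and sweeps to scale, with the XP-CLR score beside each sweep, and points are DMRs, drawn larger than scale. The anchors lie at 54.4 and 5.79 kb on the left, the overlapping teosinte-landrace DMR lies on the contacted DMR, and the nearer sweep starts 61.3 kb to the right.

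The chromosome 3 DMR overlapped no other deposited DMR, as did 645 (41.7%) of the 1545 teosinte-maize CG DMRs and 12 of the 42 listed. Within 500 kb there were 5 DMRs, of which 1 lay within 250 kb. That one was a teosinte-maize CHH DMR of 122 bp at chr3:144976306-144976428, 187 kb away, and it lay inside the anchor of Zm00001d041948, Zm00001d041949, Zm00001d041950 and Zm00001d041951. As for the other CHH DMRs, the cut-off behind this call is not known here. Of the 44 listed anchors, 8 (18.2%) held a deposited DMR of any kind, and neither anchor on chromosome 5 was among them. The chromosome 3 anchor is the longest of the 44, and this share does not allow for length. A teosinte-maize CHG DMR of 312 bp lay beyond the anchor, at chr3:144899255-144899567, 264 kb from the contacted DMR.

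The other 3 DMRs lay on top of each other on the far side, 319 kb from the contacted DMR. They were a teosinte-maize CG DMR of 418 bp at chr3:145482368-145482786, a teosinte-maize CHG DMR of 367 bp at chr3:145482397-145482764 and a teosinte-landrace CG DMR of 145 bp at chr3:145482641-145482786. The CHG DMR lay wholly within the CG DMR and covered 87.8% of it. The teosinte-landrace DMR lay within it too, covered 34.7% and shared its end. This CG DMR, which is on the far side from the anchor, was the nearest other teosinte-maize CG DMR, at a distance close to the median of 304 kb. As around most of the 1545, there was no landrace-maize CG, CHG or CHH DMR within 500 kb.

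The chromosome 3 DMR lay wholly inside a teosinte-maize sweep at chr3:144975001-145520000, as did part of the anchor. That sweep was 545 kb long and had an XP-CLR score of 113, rank 195 of 1330 by score and rank 121 by length. Of the 1545 teosinte-maize CG DMRs, 428 (27.7%) overlapped a teosinte-maize sweep, and of the 42 listed 14 (33.3%) did. With 1 of the 2 contacted DMRs in such a sweep, the count is too small to be read against these shares. The sweep held 12.9 kb of the anchor, or 74.7% of its length, and the whole stretch of 175373 bp between anchor and DMR. The CHH DMR in the anchor was inside the sweep too. Of the 44 listed anchors, 13 (29.5%) overlapped a teosinte-maize sweep, a share that does not allow for anchor length either. The sweep held 2 teosinte-maize CG DMRs, the contacted one and the one 319 kb away. Of the 1330 sweeps, 93 (6.99%) held at least as many and 1099 held none. The sweep was picked for holding the contacted DMR and is among the longer ones. Its count can therefore not be read against that share.

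By their called ends, sweeps of the other comparisons flanked the chromosome 3 DMR without reaching it. A teosinte-landrace sweep at chr3:145005001-145100000, between anchor and DMR, was 95 kb long, had a score of 88.9, rank 358 of 1355, and ended 63.3 kb before the DMR. A landrace-maize sweep at chr3:145170001-145280000, just beyond the DMR, was 110 kb long, had a score of 75.2, rank 950 of 1375, and began 6.15 kb after it. By these ends the DMR lay in the 70 kb between them, which make up 12.8% of the teosinte-maize sweep. The authors scored and merged sliding windows longer than the gap of 6.15 kb. Whether the landrace-maize sweep stops short of the DMR is therefore not resolved. A second landrace-maize sweep at chr3:145365001-145505000, with a score of 65.3 and rank 1238, began 201 kb from the contacted DMR and held the 3 overlapping DMRs. A teosinte-landrace sweep at chr3:144830001-144900000, with a score of 51.9 and rank 1234, ended 263 kb before the contacted DMR and held the CHG DMR beyond the anchor.

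The teosinte-landrace sweep between anchor and DMR and both landrace-maize sweeps lay wholly inside the teosinte-maize sweep. They covered 95 kb (17.4%) and 250 kb (45.9%) of it, 345 kb (63.3%) together, without overlapping each other. By the called ends, the contacted DMR was in the rest. Of the 1545 DMRs, 101 (6.54%) were likewise in a teosinte-maize sweep and in no sweep of the other comparisons. So were 4 of the 42 listed. Of the 1198 teosinte-maize CG DMRs outside landrace-maize sweeps, 24 had one nearer than 6.15 kb, and the median gap was 488 kb. Of the 1173 outside teosinte-landrace sweeps, 128 had one nearer than 63.3 kb, and the median gap was 574 kb. Both sets include DMRs outside teosinte-maize sweeps. Those inside such sweeps, as the contacted DMR is, were not compared separately. Scores are compared within a population pair only, the medians being 68.8 for teosinte-landrace and 85.3 for landrace-maize sweeps.

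**Figure D2:**
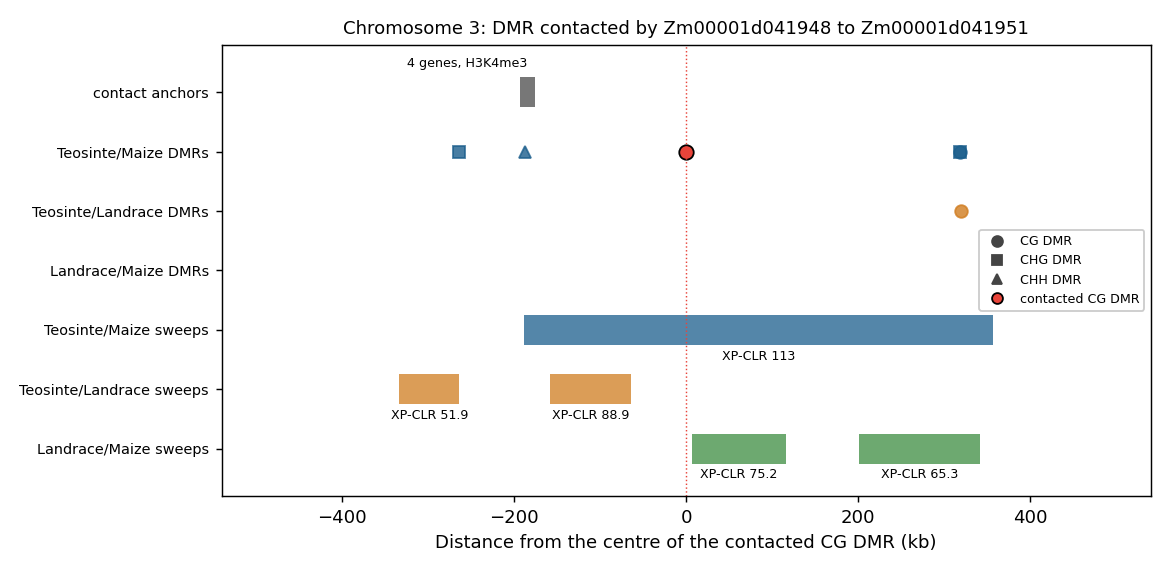
Regions within 500 kb of the chromosome 3 DMR, by distance from its centre in kb, drawn as for chromosome 5, with points for DMRs larger than scale. The sweep with a score of 113 spans the DMR and reaches into the anchor of 4 genes, the teosinte-landrace sweeps lie on the left, the landrace-maize sweeps on the right, and the DMR lies in the 70 kb between them.

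The surroundings of the DMRs were then set beside those of every teosinte-maize CG DMR. The 1545 include regions more methylated in maize and regions in or near genes and transposons. The contacted DMRs are intergenic and less methylated in maize, so the 42 listed are the closer set. This holds for every comparison with the 1545 in this report. The chromosome 5 DMR had 3 other DMRs within 500 kb and the chromosome 3 DMR had 5, against a median of 5 and a range from 0 to 44 over the 1545. More were found around 969 of the 1545 than around the chromosome 5 DMR, and around 674 than around the chromosome 3 DMR. Over the 42 DMRs of the contact list the median was 6.5, and 33 and 22 had more. Sweeps numbered 2 and 5, against a median of 3 and a range from 0 to 10, and 789 and 175 of the 1545 had more. For the 42 listed the median was 3, and 22 and 5 had more. Sweeps of all 3 comparisons were within 500 kb of the chromosome 3 DMR, as for 533 (34.5%) of the 1545, and those near the chromosome 5 DMR came from 1 comparison. These shares describe where the DMRs stand in the table. The regions were chosen with results known, and no test was made.

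**Figure D3:**
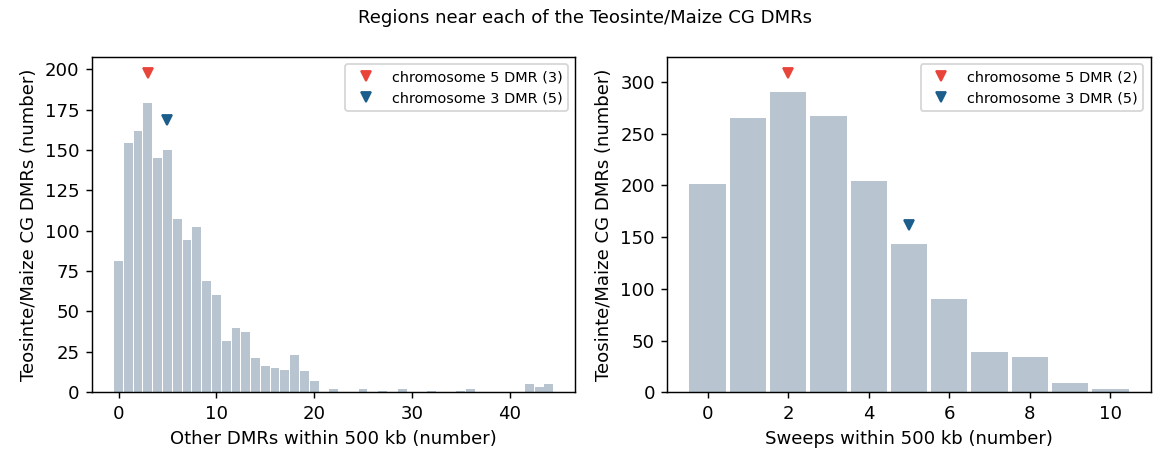
Number of other DMRs (left) and of sweeps (right) within 500 kb of each of the 1545 teosinte-maize CG DMRs, as bars counting DMRs, with triangles at the counts of the contacted DMRs. The chromosome 5 DMR stands at 3 DMRs and 2 sweeps, and the chromosome 3 DMR at 5 of each.

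**Figure D4:**
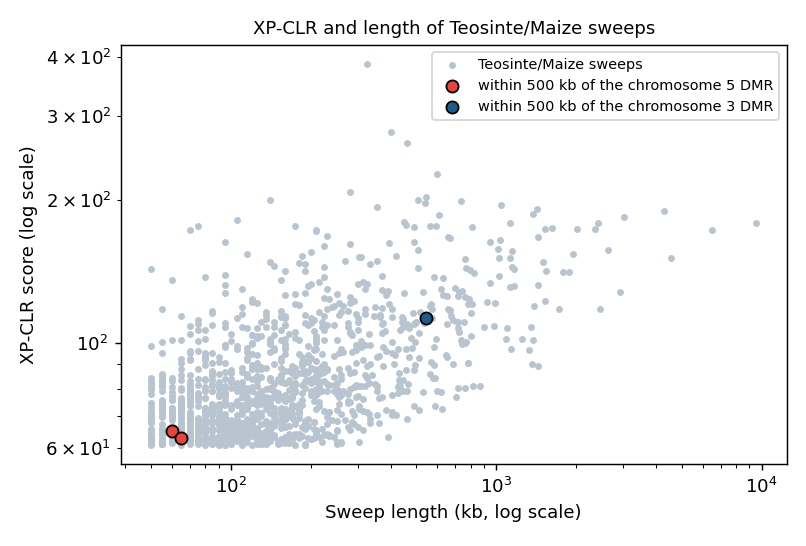
XP-CLR score against length in kb for the 1330 teosinte-maize sweeps, both axes on a log scale, with the sweeps within 500 kb of the contacted DMRs marked. The sweep around the chromosome 3 DMR stands at 545 kb and 113, and the sweeps near the chromosome 5 DMR at 65 kb and 62.9 and at 60 kb and 65.3.

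Among the other 40 DMRs of the contact list, the combination of overlaps seen at the chromosome 5 DMR, over 12 kinds of DMR and sweep, was found once. That DMR, at chr1:32617090-32617573, is 483 bp long and is contacted by Zm00001d028377 and Zm00001d028375. No other listed DMR had the combination of the chromosome 3 DMR. By the called ends, that is to lie in a teosinte-maize sweep with no other DMR or sweep on it. How common either combination is over all teosinte-maize CG DMRs was not counted. Neither count can therefore be read as particular to these DMRs.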

How the data were processed

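Leaf DNA of 20 teosinte and 17 landrace plants was sequenced by WGS and WGBS, and samples were grouped by their labelled population and assay. For WGBS, the authors aligned reads by Bowtie2 to AGPv4 of B73 with the SNPs of each plant put in, which reduces loss of reads at polymorphic sites. Methylation was extracted by Bismark, and metilene called the DMRs between populations. BWA, Picard and GATK 4 are named in the submitters' processing notes. The deposited sweep table gives the XP-CLR score of windows that the authors merged, keeping outliers, so weaker differentiation is absent from it. In the deposited DMR table, each region has its position, its context and its comparison, without direction or level. The depth of single libraries was not analysed here.

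Members were taken from the study's contact list by gene identifier, and anchors, antibodies and traits are those of that list. Members and lists were chosen with earlier results of these data known. All 7 members are named, with up to 2 other contact genes per DMR whose DMR has the same overlaps. The gene table at hand, of another assembly, matched 0 of the 7 identifiers, so no gene names are given. Gaps and overlaps (at least 1 bp) were computed with Python 3.11.15 and numpy 2.4.6, and plotted with matplotlib 3.10.9. The number of teosinte-maize CG DMRs in teosinte-maize sweeps was also counted with bedtools 2.31.1, which gave 428. The overlap search was tested on simulated regions. DMR starts were taken to count from 0 and sweep starts from 1, and positions are printed as deposited. In the sweep table, 23 ends are written in scientific notation and were read as the rounded numbers printed. Windows of 250 kb and 1 Mb, distances from anchors, omission of CHH DMRs, stricter sweeps and overlaps and another origin of DMR starts were tried. No tests were made, since the tables hold no replicates.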

Additional observations from a re-analysis of the deposited data

How the results depend on the processing

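Of the alternative values, 14 stayed close to the main value, meaning a count within 1.5 times it or a share within its 95% binomial interval, and 10 moved. Within 250 kb, the chromosome 3 DMR had 1 other DMR in place of 5, and the chromosome 5 DMR 1 sweep in place of 2. Within 1 Mb, the chromosome 5 DMR had 5 other DMRs in place of 3, and the chromosome 3 DMR 9 sweeps in place of 5. With only sweeps at or above the median XP-CLR of their comparison, the chromosome 3 DMR stayed in its sweep and had 2 sweeps within 500 kb, the chromosome 5 DMR had 0, and the gap from it to the nearest teosinte-maize sweep was 8296326 bp in place of 61326 bp. Those sweeps held 24.0% of the teosinte-maize CG DMRs in place of 27.7%. Requiring an overlap of at least 50% of the DMR lowered the share on teosinte-landrace CG DMRs to 12.1% and that on CHG DMRs to 47.1%; the overlap of 50.5% at chromosome 5 still counted. No paired analysis was possible because the results come from no test and the tables hold no values of single plants. The calls rest on populations, and the depth behind them was not analysed here.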
